A study of Mus musculus with 8 samples.

Results

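The vascular basement membrane genes examined here are 10 genes, chosen by gene symbol among the 34299 genes of a count table from mouse brain: the collagen IV genes Col4a1 and Col4a2, the laminin genes Lama2, Lama4, Lamb1 and Lamc1, the nidogen genes Nid1 and Nid2, and the proteoglycan genes Hspg2 and Agrn. All 10 were found, and all passed the filter on low counts in each comparison. RNA-seq of polyadenylated RNA from whole brain was available for 8 libraries. Fetal brain of day 15 gave 3 libraries of wild-type mice (WT) and 3 of mice with a Cav1 knockout (KO). A further 2 libraries came from Cav1 KO brain of week 70, labelled as aging. Both KO groups lack Cav1, the gene for caveolin 1, the main scaffold protein of caveolae, and caveolae are abundant in the endothelium of peripheral vessels. The design asks how brain expression differs with the loss of Cav1 and, within the knockout, with age. WT brain at week 70 was not analysed here, so an effect of age cannot be separated from one that occurs only in the knockout. The labels give neither the strain, the sex nor the way the knockout was made. They speak of biological replicates for the fetal brains but do not say whether the week 70 libraries came from separate animals. The p-values set differences between groups against the spread among these libraries only. If the week 70 libraries came from the same animal, that spread lacks the variation between animals at week 70.

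A basement membrane is a thin sheet of matrix under endothelium and around pericytes and smooth muscle. Laminin trimers, each with an alpha, a beta and a gamma chain, form a network at the cell surface. Collagen IV forms a further, covalently linked network, and nidogens and the heparan sulfate proteoglycan perlecan bridge them. In brain the sheet separates vessels from astrocyte endfeet, and a similar sheet lies under the meninges at the brain surface. Mutations of COL4A1 and COL4A2 cause brain haemorrhage and small vessel disease in people. The libraries are of whole brain and do not tell vessel from pial basement membrane. Agrin is also made by neurons, so the word vascular describes the gene list and not the source of its transcripts.

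The starts of these genes were taken from RefSeq promoter windows (GRCm38.p6, 300 bases each), which matched 7 of the 10 genes in 8 windows, Agrn with 2. The stretch between Col4a1 and Col4a2 is shown because both genes start in it, on opposite strands. It is chr8:11312801-11312830, plus strand, and the capitals mark the 22 bases that belong to both annotated genes.
Col4a1 and Col4a2: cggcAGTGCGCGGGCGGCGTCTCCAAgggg
The next sequences are shown because the genes differ widely in how far they fell in the knockout while all carry GC boxes before their starts. The capitals mark GGGCGG or its reverse complement, overlapping matches included. Hspg2 (chr4:137468553-137468768, plus strand, 5 matches), Nid1 (chr13:13437352-13437550, plus strand, 1 match) and Agrn (chr4:156197489-156197738, minus strand, 12 matches) are printed along the gene's own strand, up to the annotated gene start.
Hspg2: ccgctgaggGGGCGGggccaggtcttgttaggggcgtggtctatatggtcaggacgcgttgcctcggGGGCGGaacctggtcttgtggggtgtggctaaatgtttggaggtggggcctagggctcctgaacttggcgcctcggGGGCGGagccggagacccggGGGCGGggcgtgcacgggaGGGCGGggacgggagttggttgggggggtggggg
Nid1: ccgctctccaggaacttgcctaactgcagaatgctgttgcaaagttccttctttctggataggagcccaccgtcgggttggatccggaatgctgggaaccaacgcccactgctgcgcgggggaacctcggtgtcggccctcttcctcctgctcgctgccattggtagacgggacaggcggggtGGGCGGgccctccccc
Agrn: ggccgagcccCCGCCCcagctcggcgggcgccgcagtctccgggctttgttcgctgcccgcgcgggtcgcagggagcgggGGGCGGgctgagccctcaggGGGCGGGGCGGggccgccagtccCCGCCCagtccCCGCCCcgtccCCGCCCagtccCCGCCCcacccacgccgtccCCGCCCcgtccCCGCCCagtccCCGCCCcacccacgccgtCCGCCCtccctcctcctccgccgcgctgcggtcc
The GC box was present on either strand in all 8 windows of the matched genes, against 35.7% of all 32851 windows of this length. The windows are not separate cases, because those of Col4a1 and Col4a2 overlap and share a match, and Agrn counts with 2. Their GC content was 50.3% to 83.3%, and the set of all windows was not matched for GC. Both Hspg2, which fell steeply in the fetal knockout, and Agrn, which fell least, held 4 or more matches in a window, as did 5.49% of all windows. CCAAT, searched on both strands, occurred in the windows of Col4a1, Col4a2, Lamb1 and Nid1 and in 37.4% of all windows. TATAAA, also searched on both strands, occurred in none of the 8 and in 13.6% of all. Each match describes letters in a window and not a bound site.

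Total counts were 19414747 to 20833397 in the WT fetal libraries, 14110031 to 15245283 in the KO fetal libraries, and 18924304 and 20203233 at week 70. Every KO fetal library was shallower than every WT library, and the labels give no batch or date, so batch and genotype cannot be told apart. Cav1 held 367, 218 and 329 counts in WT, 0, 3 and 1 in KO fetuses, and 1 and 5 at week 70, as the labels imply. Neuron markers summed to between 4558 and 8719 CPM (normalised read counts relative to the library total, scaled together over the 8 libraries) in every library. The scaling factors (TMM) were 1.02 to 1.03 in WT, 1.17 to 1.18 in KO fetuses, and 0.751 and 0.767 at week 70. A lower factor raises the CPM, so CPM differences between the KO ages depend on this scaling. WT replicate 1 stood apart: its 10 meningeal fibroblast markers summed to 4448 CPM, against 319 and 533 in the other WT libraries, and its 6 cartilage markers to 609 CPM, against 127 and 115. The week 70 libraries differed in choroid plexus markers, which summed to 72.0 and 2398 CPM. Fetal KO changes also followed transcript properties across all 19147 genes tested, with a Spearman correlation of -0.48 with GC content and -0.37 with transcript length. The 10 genes have long transcripts, 4876 to 14187 bases against a median of 2992, and 9 of the 10, all but Lama2, lie above the median GC of 49.2%. For this reason the fold changes of the 10 genes and the counts of the lists are also given from a fit with both trends removed per library, called the corrected fit.

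All 10 basement membrane genes were lower in the fetal knockout than in WT, by 1.93-fold for Agrn to 11.1-fold for Col4a1 in mean CPM. The collagen IV genes and Hspg2 fell furthest, the nidogens next, the laminins less and Agrn least. Each gene passed the threshold (edgeR quasi-likelihood test, Benjamini-Hochberg adjusted p under 0.05 over all genes), where 32.5% of all genes tested were called lower and 30.1% higher. In none of the 10 did the WT and KO values overlap, which held, in the lower direction, for 36.3% of genes. In bulk tissue, fewer cells that make a transcript and less transcript per cell cannot be told apart. Because the list was proposed with results of these libraries known, the adjusted p-values that follow describe the genes and are no independent evidence for the list.

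Col4a1 (ENSMUSG00000031502, GRCm38 chr8:11198423-11312826, minus strand) and Col4a2 (ENSMUSG00000031503, chr8:11312805-11449287, plus strand) encode the collagen IV chains found in nearly all basement membranes. Col4a1 measured 388, 237 and 312 CPM in the WT libraries, 29.1, 29.4 and 25.9 CPM in the KO fetal libraries, and 28.9 and 30.8 CPM at week 70. Every WT library was thus several times above every KO library. On this scale the KO libraries of both ages lay in a narrow band, which depends on the scaling factors. The corrected fit placed Col4a1 lower at week 70 than in KO fetuses, at -1.10 on the log2 scale. The fetal log2 fold change of Col4a1 was -3.43 (SE 0.155, edgeR adjusted p = 4.31e-08), the fall ranked 19 among all tested genes. Col4a2 measured 258, 167 and 221 CPM in WT, 20.6, 21.1 and 18.1 CPM in KO fetuses, and 31.1 and 32.5 CPM at week 70. Its fetal log2 fold change was -3.39 (SE 0.143, edgeR adjusted p = 3.03e-08). The WT spread of both genes had the same order, replicate 1 highest and replicate 2 lowest. The genes overlap by 22 bases at their starts, and whether the counting used strand is not stated, so reads in the overlap are uncertain in origin.

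The laminin genes fell by less. Lamc1 (ENSMUSG00000026478, chr1:153218922-153332786, minus strand), the gamma chain of most laminins, measured 130, 96.5 and 101 CPM in WT, 21.6, 20.8 and 18.1 CPM in KO fetuses, and 28.8 and 33.6 CPM at week 70. Its fetal log2 fold change was -2.39 (SE 0.113, edgeR adjusted p = 5.33e-08), which made it the laminin that fell furthest. Lamb1 (ENSMUSG00000002900, chr12:31265234-31329644, plus strand), a beta chain common in early tissue, measured 93.4, 54.1 and 60.9 CPM in WT, 17.8, 18.1 and 19.2 CPM in KO fetuses, and 12.9 and 17.2 CPM at week 70. Lama4 (ENSMUSG00000019846, chr10:38965515-39110188, plus strand), the alpha chain of endothelial laminin, measured 54.9, 31.8 and 37.4 CPM in WT, 11.3, 11.5 and 10.9 CPM in KO fetuses, and 11.3 and 7.86 CPM at week 70. Lamb1 and Lama4 fell together at day 15, by 1.88 and 1.84 on the log2 scale (SE 0.174 and 0.173). Lama2 (ENSMUSG00000019899, chr10:26980036-27619758, minus strand), the alpha chain made around vessels by astrocytes and mural cells and mutated in a congenital muscular dystrophy, was the lowest of the 4 laminin genes per length in both fetal groups. It measured 22.9, 9.93 and 11.8 CPM in WT, 3.39, 5.06 and 4.34 CPM in KO fetuses, and 16.3 and 18.0 CPM at week 70. Its fetal fall of 1.75 on the log2 scale (SE 0.293, edgeR adjusted p = 0.000405) was the least precise of the 10 and rested most on WT replicate 1. That library was 2.10-fold above the mean of the other WT libraries, and without it the fall was 1.33.

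Nid1 (ENSMUSG00000005397, chr13:13437551-13512269, plus strand) and Nid2 (ENSMUSG00000021806, chr14:19751265-19811787, plus strand) encode the nidogens, which bind laminin and collagen IV. Nid1 measured 134, 82.1 and 111 CPM in WT, 15.4, 14.3 and 12.7 CPM in KO fetuses, and 9.36 and 7.51 CPM at week 70. Nid2 measured 77.4, 41.6 and 56.0 CPM in WT, 8.48, 8.45 and 7.93 CPM in KO fetuses, and 5.47 and 7.38 CPM at week 70. Both stepped down in the same order, WT fetus, KO fetus, KO week 70, with no overlap between any groups. Their fetal log2 fold changes were -2.90 for Nid1 (SE 0.158, edgeR adjusted p = 1.24e-07) and -2.77 for Nid2 (SE 0.196, edgeR adjusted p = 7.29e-07). Nid2 shares 437 bases with the antisense gene Rtraf, and Nid1 shares 143 with a predicted gene, so a part of their reads is uncertain in origin.

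The proteoglycan genes were the least alike. Hspg2 (ENSMUSG00000028763, chr4:137468769-137570630, plus strand) encodes perlecan, which carries heparan sulfate and binds growth factors. It measured 175, 82.1 and 96.3 CPM in WT, 12.7, 11.4 and 12 CPM in KO fetuses, and 13.8 and 10.9 CPM at week 70. Its fetal log2 fold change was -3.24 (SE 0.255, edgeR adjusted p = 1.55e-06), and -2.87 without WT replicate 1, in which it was 1.96-fold above the mean of the other WT libraries. Agrn (ENSMUSG00000041936, chr4:156165290-156197488, minus strand) encodes agrin, which clusters acetylcholine receptors at the neuromuscular junction and occurs in brain vessels and neurons. It measured 906, 882 and 926 CPM in WT, 510, 485 and 411 CPM in KO fetuses, and 116 and 149 CPM at week 70. Agrn was the only one of the 10 in which WT replicate 1 did not exceed both other WT libraries. Its fetal log2 fold change was -0.91 (SE 0.0771, edgeR adjusted p = 2.71e-06), a fall ranked 2509 among all genes.

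**Figure D1:**
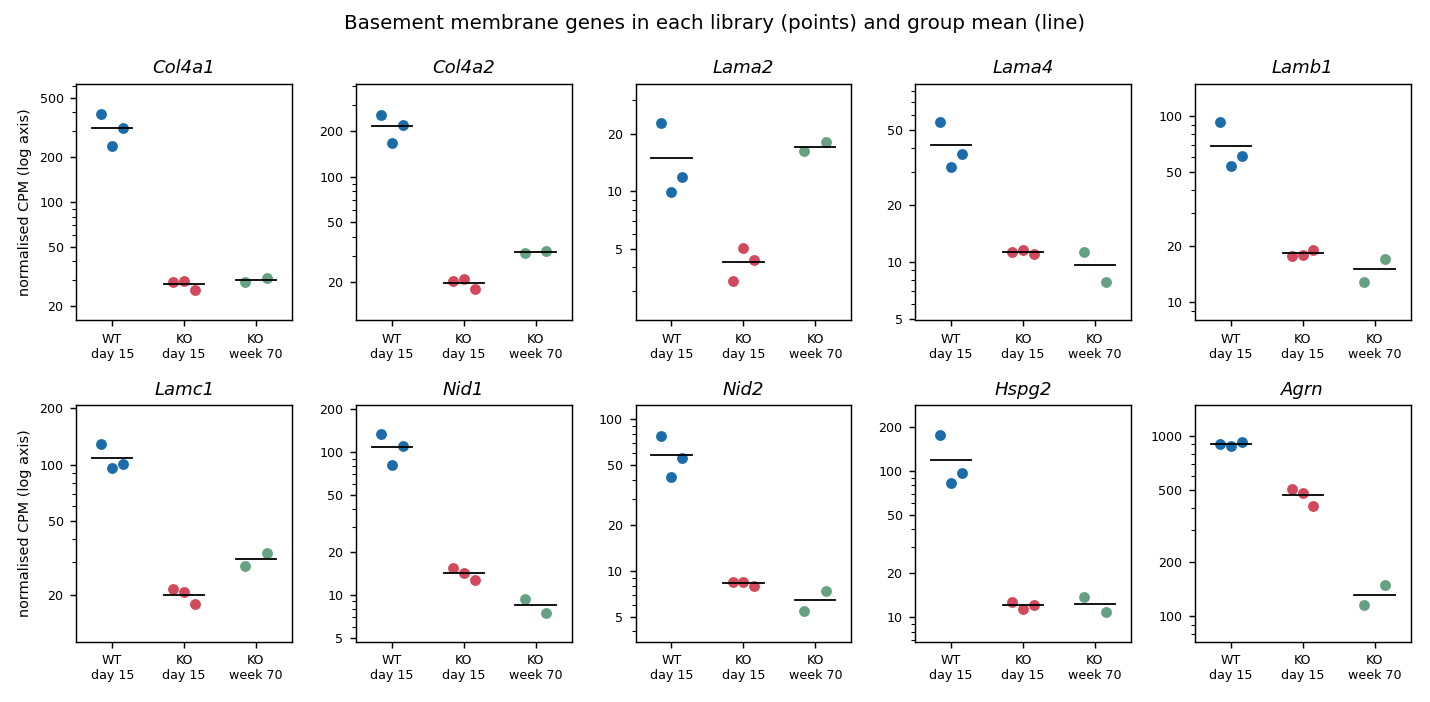
Normalised CPM (log axis) of the 10 genes in each of the 8 libraries, by group. The fetal WT libraries lie above the fetal KO libraries for every gene, and week 70 lies near fetal KO for Col4a1 and Hspg2, above it for Lama2 and far below it for Agrn.

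The median fetal log2 fold change of the 10 genes was -2.58, against 0.03 over all tested genes. Without WT replicate 1 the median was -2.40, and under upper-quartile scaling, which moved all genes to a median of 0.20, it was -2.41. The corrected fit gave smaller falls and changed the place of Agrn. There 9 of the 10 genes were called lower, against 25.8% of all genes lower and 25.2% higher, and the median was -1.79 against 0.01. Corrected falls ran from 1.17 for Lamb1 to 2.37 for Col4a1, with 2.31 for Nid1, 2.19 for Col4a2, 2.05 for Nid2, 2.04 for Hspg2, 1.55 for Lamc1, 1.27 for Lama4 and 1.25 for Lama2. Agrn, with a GC of 56.5% and 8612 bases, changed sign to 0.14 (SE 0.0617) and was not called in the corrected fit (edgeR adjusted p = 0.0859). The nidogens, of moderate GC (50.4% and 54.6%), then ranked with the collagens. With the correction and without WT replicate 1, Hspg2 fell by 1.62, Col4a1 by 2.22 and Lama2 by 0.82.

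**Figure D2:**
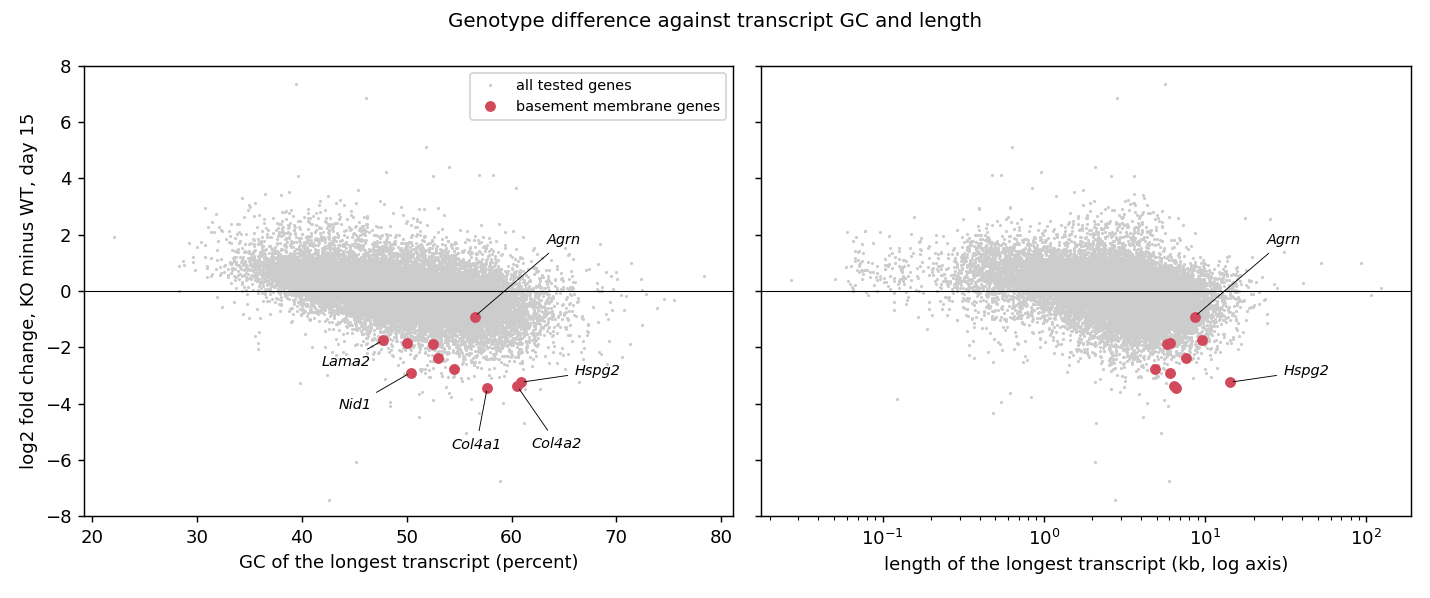
Fetal KO minus WT log2 fold change of every tested gene (grey) and of the 10 basement membrane genes (red) against GC content and length of the longest transcript. Genes of higher GC content lie lower, and most of the red points lie at the lower edge of the cloud at their own GC, whereas Agrn lies inside it.

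Within the knockout, age moved these genes in different directions. From fetal day 15 to week 70, Lama2, Col4a2 and Lamc1 rose, Agrn, Nid1 and Lamb1 fell, and the other 4 did not pass the threshold. The counts of 3 higher and 3 lower stand against 37.6% of all genes called higher and 44.4% lower. The age comparison shares the fetal KO libraries with the genotype comparison, so low or high values in them enter both.

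Lama2 rose by a log2 fold change of 1.90 (SE 0.199, edgeR adjusted p = 6.79e-06), a 4.02-fold higher mean CPM. Col4a2 rose by 0.57 (SE 0.114, edgeR adjusted p = 0.00086), while its partner Col4a1 measured -0.02 (SE 0.107, edgeR adjusted p = 0.901). Lamc1 rose by 0.53 (SE 0.125, edgeR adjusted p = 0.00251). The week 70 values of Lama2, 16.3 and 18.0 CPM, lay above WT replicates 2 and 3 (9.93 and 11.8 CPM) and below replicate 1 (22.9 CPM). Those of Col4a2 and Lamc1 stayed below every WT value.

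Agrn fell furthest with age, by 1.93 on the log2 scale (SE 0.136, edgeR adjusted p = 2.81e-07), a larger value than its fetal genotype difference. Nid1 fell by 0.84 (SE 0.173, edgeR adjusted p = 0.00102) and Lamb1 by 0.39 (SE 0.153, edgeR adjusted p = 0.0356). Nid2, at -0.47 (SE 0.202), missed the threshold (edgeR adjusted p = 0.0516), although its week 70 values lay below all fetal KO values. Lama4 (-0.33, SE 0.187) and Hspg2 (-0.07, SE 0.162) had overlapping values at both ages.

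The age result depends on the trend with GC and length, which ran the other way here, with Spearman correlations of 0.28 and 0.20 across 20000 genes. In the corrected fit 1 gene was called higher, against 42% of all genes, and 8 lower, against 36.3%. Lama2 kept its rise, at 1.99 (SE 0.187). Col4a2 turned to a fall of 0.77 (SE 0.100), and Lamc1, at -0.11, was no longer called (edgeR adjusted p = 0.384). Col4a1 was called lower with -1.10 and Agrn with -2.79. The median of the 10 genes was -0.20 before the correction, against -0.19 over all genes, and -0.97 after it, against 0.07. Under upper-quartile scaling, which put the median of all genes at -0.44, 2 were called higher and 6 lower.

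**Figure D3:**
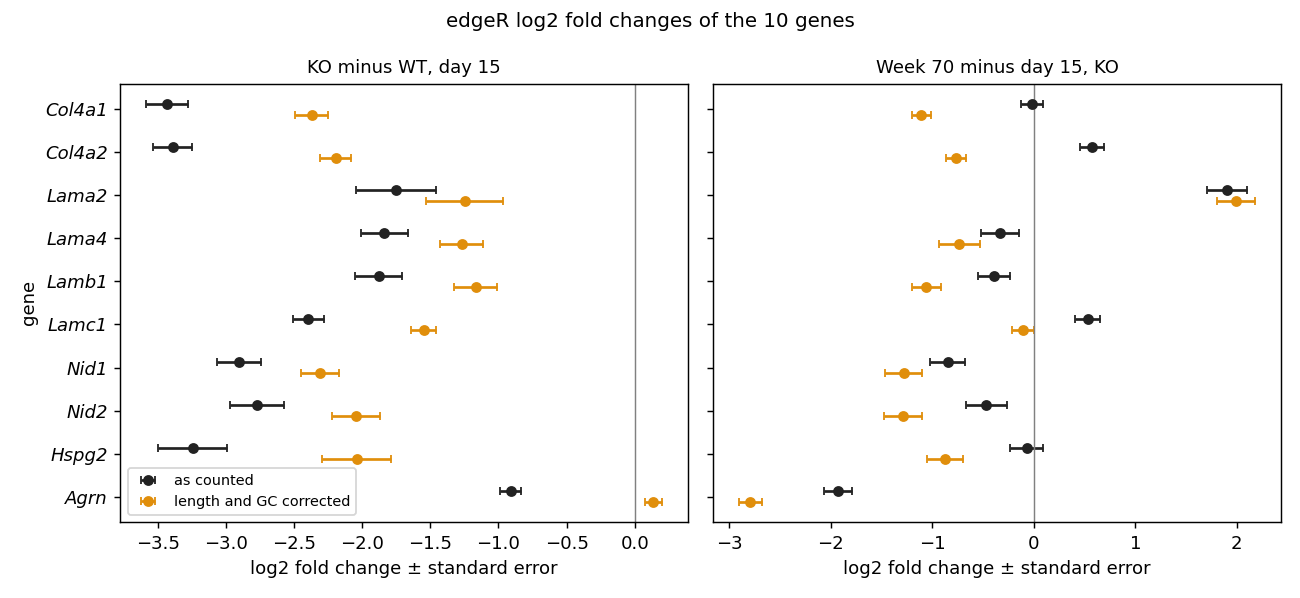
Log2 fold changes of the 10 genes with standard errors, without and with the correction for transcript length and GC, in each comparison. The fetal falls shrink under the correction, Agrn moves from -0.91 to 0.14, and in the age comparison Col4a2 moves from 0.57 to -0.77 while Lama2 stays near 2.

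Set beside WT fetuses, the week 70 knockout was lower in 9 of the 10 genes, all but Lama2, where 41.9% of all genes were called lower and 36.7% higher. The week 70 values of these 9 lay below every WT value, which held for 46.3% of genes. Genotype and age differ together in this comparison and cannot be told apart. The falls ran from 1.82 for Lamc1 to 3.70 for Nid1 on the log2 scale. Lama2 measured 0.19 (SE 0.340, edgeR adjusted p = 0.625), with week 70 values inside the WT range. Without WT replicate 1 its difference was 0.64 and passed the threshold (edgeR adjusted p = 0.0127). In the corrected fit the same 9 genes were called lower, by 1.61 for Lamc1 to 3.58 for Nid1, against 36.4% of all genes lower and 39.9% higher, and Lama2 measured 0.76 (SE 0.313, edgeR adjusted p = 0.0543).

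The groups therefore fell into 3 orders of mean CPM. Col4a1, Col4a2, Lamc1 and Hspg2 ran from WT fetus to KO week 70 to KO fetus, with the KO ages not separated for Col4a1 and Hspg2. Lama4, Lamb1, Nid1, Nid2 and Agrn ran from WT fetus to KO fetus to KO week 70, with the KO ages overlapping for Lama4. Lama2 was highest in the week 70 knockout, whose values overlapped those of WT only through WT replicate 1, and lowest in the fetal knockout.

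Expressed per kilobase of the longest transcript, Agrn had the highest level of the 10 in every group, at 105 ± 2.60 CPM per kb for WT, 54.5 ± 5.99 for fetal KO (SD, n = 3 each) and 15.4 ± 2.70 at week 70 (SD, n = 2). Col4a1 followed in WT with 47.2 ± 11.4 CPM per kb, then Col4a2 with 33.4 ± 7.11, Nid1 with 17.9 ± 4.23 and Lamc1 with 14.3 ± 2.38 (SD, n = 3 each). Values overlapped across libraries between Col4a1 and Col4a2 and between Nid1 and Lamc1, but not between Col4a2 and Nid1. Within each WT library, however, Col4a1 exceeded Col4a2 (ratios of 1.47, 1.38 and 1.37) and Nid1 exceeded Lamc1. In the fetal knockout Col4a1 stood at 4.26 ± 0.291 and Lamb1, at 3.17 ± 0.125, lay beside Col4a2 at 3.09 ± 0.253 CPM per kb. Lama2 was lowest in both fetal groups, with 1.55 ± 0.726 in WT and 0.443 ± 0.0869 CPM per kb in KO. At week 70 Hspg2 was lowest, at 0.869 ± 0.144. The mean of Lama2, 1.78 ± 0.126 CPM per kb, stood above that of Lama4, 1.58 ± 0.399. Their order differed between the libraries, with Lama4 to Lama2 at 1.10 in replicate 1 and 0.695 in replicate 2.

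Proportions between partner genes separate coordinated from unequal change within a library. The ratio of Col4a1 to Col4a2 per kb was 1.47, 1.38 and 1.37 in WT, 1.38, 1.36 and 1.40 in KO fetuses, and 0.907 and 0.923 at week 70. The partners thus kept their proportion through a more than 10-fold difference between genotypes, and the proportion was lower in both week 70 libraries. Nid1 to Nid2 ranged from 1.38 to 1.59 in WT, from 1.28 to 1.46 in KO fetuses, and was 1.37 and 0.815 at week 70, so these groups overlapped. Lamb1 to Lamc1 ranged from 0.738 to 0.948 in WT, from 1.09 to 1.40 in KO fetuses, and was 0.588 and 0.672 at week 70, with no overlap between groups. Agrn to Hspg2 ranged from 8.54 to 17.7 in WT and from 56.2 to 69.8 in KO fetuses, and was 13.8 and 22.5 at week 70. These ratios carry no test, and a trend with GC or length that differs between libraries also moves them.

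The laminin alpha chains were compared as shares of their summed CPM per kb, with Lama1, Lama3 and Lama5 added. Lama4 held the largest share in fetuses, 46.8% ± 3.30 for WT against 37.6% ± 2.10 for KO (SD, n = 3 each), and 27.8% ± 7.44 at week 70 (SD, n = 2). Lama2 held 10.3% ± 2.53, 8.89% ± 1.32 and 31.3% ± 1.72 in the same order. Lama1, an early alpha chain found at the brain surface, held 25.4% ± 3.46, 26.8% ± 2.01 and 6.23% ± 2.56. From the fetal to the week 70 knockout the place of Lama1 among the alpha chains shrank and that of Lama2 grew. Among beta chains, Lamb1 to Lamb2 per kb was 1.20 to 1.37 in WT, 0.867 to 1.12 in KO fetuses, and 0.351 and 0.385 at week 70; Lamb2 is the beta chain typical of mature vessels.

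**Figure D4:**
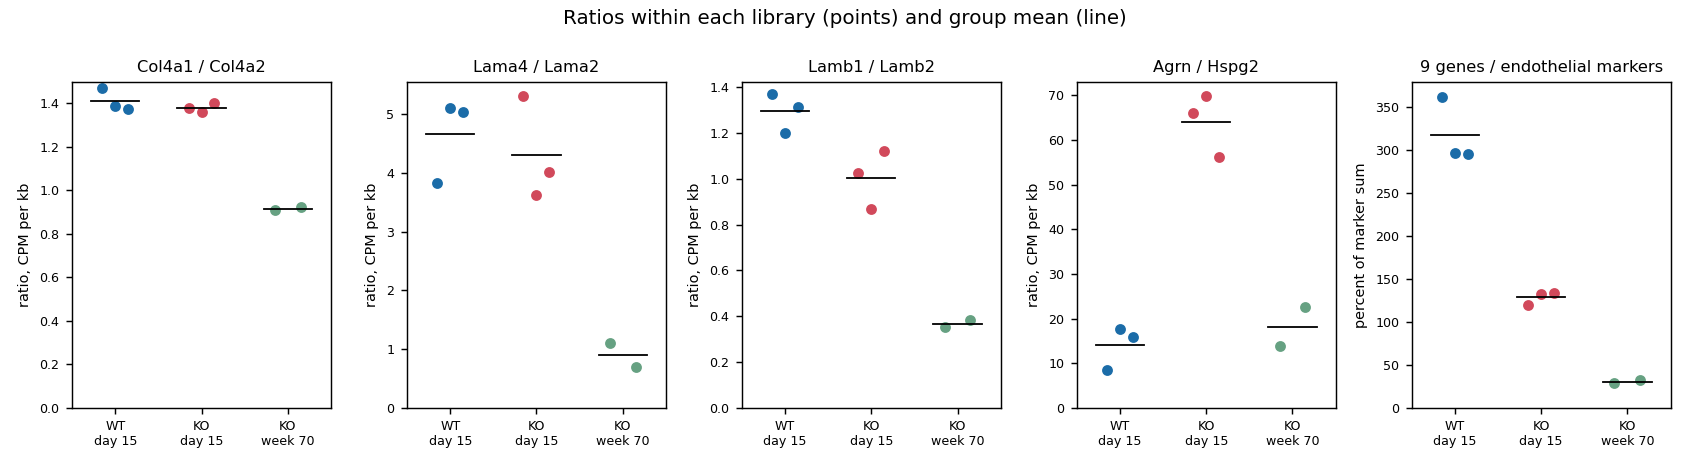
Ratios between partner genes, and the summed CPM of the 9 genes other than Agrn as a percentage of marker sums, in each of the 8 libraries. Col4a1 to Col4a2 is flat across the 6 fetal libraries and lower at week 70, and the percentage of the endothelial marker sum steps down from WT to KO fetus to week 70.

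Markers of vessel cells were also mostly lower in the fetal knockout, as were those of radial glia and astrocytes. The day 15 counts that follow stand against 32.5% of all genes called lower and 30.1% higher. Of 14 endothelial markers 12 fell and none rose, and their summed level was 270 to 368 CPM in WT and 97.2 to 118 CPM in KO fetuses. The same count of 12 fell without WT replicate 1. Of the 11 tested of 12 pericyte and smooth muscle markers, 7 fell and 2 rose, with sums of 251 to 323 and 168 to 179 CPM. Of 10 meningeal fibroblast markers 7 fell, with sums of 319 to 4448 and 78.5 to 150 CPM. Without WT replicate 1, which held the 4448 CPM, 6 of these fibroblast markers fell and 1 rose. Of 7 erythroid markers 6 rose, with sums of 1028 to 1309 and 3591 to 4413 CPM, while Hbb-y fell (-0.95, or -1.62 corrected). Of 7 radial glia markers 6 fell and 1 rose, with a median of -0.70, against -1.28 for the endothelial markers. Of 6 astrocyte markers 4 fell and 1 rose, with a median of -1.00. Falls and rises were 4 and 2 for neuron, 3 and 2 for oligodendrocyte and 3 and 1 for microglia markers. Of 6 choroid plexus markers 3 fell and none rose. No marker of these lists was at 0 in all libraries, and the part of vessel cell number in the falls was not tested. The 9 genes other than Agrn summed to 1333, 802 and 1007 CPM in WT, 140, 140 and 129 in KO fetuses, and 158 and 166 at week 70. As a percentage of the endothelial marker sum this was 362, 296 and 295 in WT, 119, 133 and 133 in KO fetuses, and 28.4 and 32.1 at week 70. The basement membrane sum was therefore lower in KO fetuses also relative to endothelial markers. It was not set against the meningeal fibroblast sum, which was also lower in every KO fetal library than in every WT library. That sum ran from 319 to 4448 CPM within WT, and whether a fall remains relative to meningeal cells was not tested. With age all 14 endothelial markers rose, to sums of 516 and 556 CPM, where 37.6% of all genes were called higher. The basement membrane sum measured 137 ± 6.43 CPM in fetal KO (SD, n = 3) and 162 ± 5.58 CPM at week 70 (SD, n = 2). The order of these sums depends on the scaling factors, 1.17 to 1.18 in KO fetuses against 0.751 and 0.767 at week 70. The sums also carry no correction for GC and length, and in the corrected fit 8 of the 10 genes were lower at week 70, against 36.3% of all genes. In that fit 12 endothelial, 7 pericyte and smooth muscle and 6 fibroblast markers fell at day 15, against 25.8% of all genes. There 13 endothelial markers rose with age, against 42% of all genes. Relative to the pericyte and smooth muscle sum, the percentages were 320 to 413 in WT, 75.5 to 83.6 in KO fetuses, and 48.7 and 57.1 at week 70.

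The genes around these members in the basement membrane pathway were also mostly lower in the fetal knockout, and their counts stand against the 32.5% of all genes called lower and 30.1% higher (25.8% and 25.2% in the corrected fit). Of the 10 tested of 11 other collagen IV and laminin chains, 7 fell and Lama3 rose, with a median of -1.42. The correction moved this median to -0.46, with 5 falls and 2 rises. Falls were led by Lamc3 (-2.23), a gamma chain of brain surface and retina, Col4a5 (-1.93) and Lamb2 (-1.49). Their corrected values were -1.18, -1.23 and -0.45, and that of Lama3 was 1.21 against 0.44 without the correction. Of 12 minor basement membrane proteins 10 fell and none rose, with a median of -1.72. In the corrected fit 9 fell and 1 rose, with a median of -1.27. Egflam (-2.62), which encodes the dystroglycan ligand pikachurin, Col18a1 (-2.57), the source of endostatin, and Sparc (-2.47), a collagen-binding glycoprotein, fell furthest. Col18a1 fell by 1.43 in the corrected fit. Sparc was 2.64-fold higher in WT replicate 1 than in the mean of the other WT libraries, and fell by 1.87 without it.

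Of 13 collagen folding genes 9 fell and 1 rose, with a median of -0.46. In the corrected fit 6 fell and 3 rose, with a median of -0.26, and under upper-quartile scaling 6 fell and 1 rose. The collagen chaperone gene Serpinh1 fell by 2.55, the lysyl hydroxylase gene Plod1 by 2.07 and Crtap, of the prolyl hydroxylation complex, by 1.81, while Ppib rose by 0.36. Among the 11 tested of 12 receptors 9 fell and none rose, with a median of -0.80. In the corrected fit 8 fell and 2 rose, with a median of -0.48: Itga3 turned from -0.43 to 0.46 and Itgb4 measured 0.67. Dag1, which encodes the laminin and agrin receptor dystroglycan, measured 162 ± 2.24 CPM in WT against 29.9 ± 3.23 CPM in KO fetuses (SD, n = 3 each). Its log2 fold change was -2.40, or -1.69 corrected. Of 14 genes of the dystroglycan complex and its glycosylation 6 fell and 3 rose, with a median of -0.12. The balance turned in the corrected fit, with 2 falls and 5 rises and a median of -0.052, and the median became 0.05 under upper-quartile scaling.

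Cell surface heparan sulfate proteoglycans fell in 9 of 10 cases, with a median of -1.23 (8 falls and 1 rise, median -0.96, in the corrected fit), led by Gpc3 (-3.14), Gpc4 (-2.32) and Sdc3 (-1.98, or -1.04 corrected). Gpc3 was 2.79-fold higher in WT replicate 1 than in the mean of the other WT libraries, and fell by 2.49 without that library. Of 11 matrix proteases and inhibitors 9 fell and 1 rose, with a median of -1.26, and with the same counts and a median of -1.12 in the corrected fit. The gelatinase genes Mmp9 (-3.21) and Mmp2 (-2.60), whose products cleave collagen IV, fell, as did Mmp15 (-2.61, or -1.60 corrected), while the inhibitor gene Timp4 rose by 0.75. Mmp2 was 3.30-fold higher in WT replicate 1 than in the mean of the other WT libraries, and fell by 1.81 without it. Without WT replicate 1, falls were called in 7 of 11 other chains, 10 of 12 minor proteins, 7 of 13 folding genes, 9 of 11 receptors, 7 of 14 dystroglycan genes, 8 of 10 surface proteoglycans and 9 of 11 proteases and inhibitors. The rise of Lama3 was then no longer called, at 0.43 (edgeR adjusted p = 0.0532), and 2 protease inhibitor genes, Timp4 and Timp1, were called higher.

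**Figure D5:**
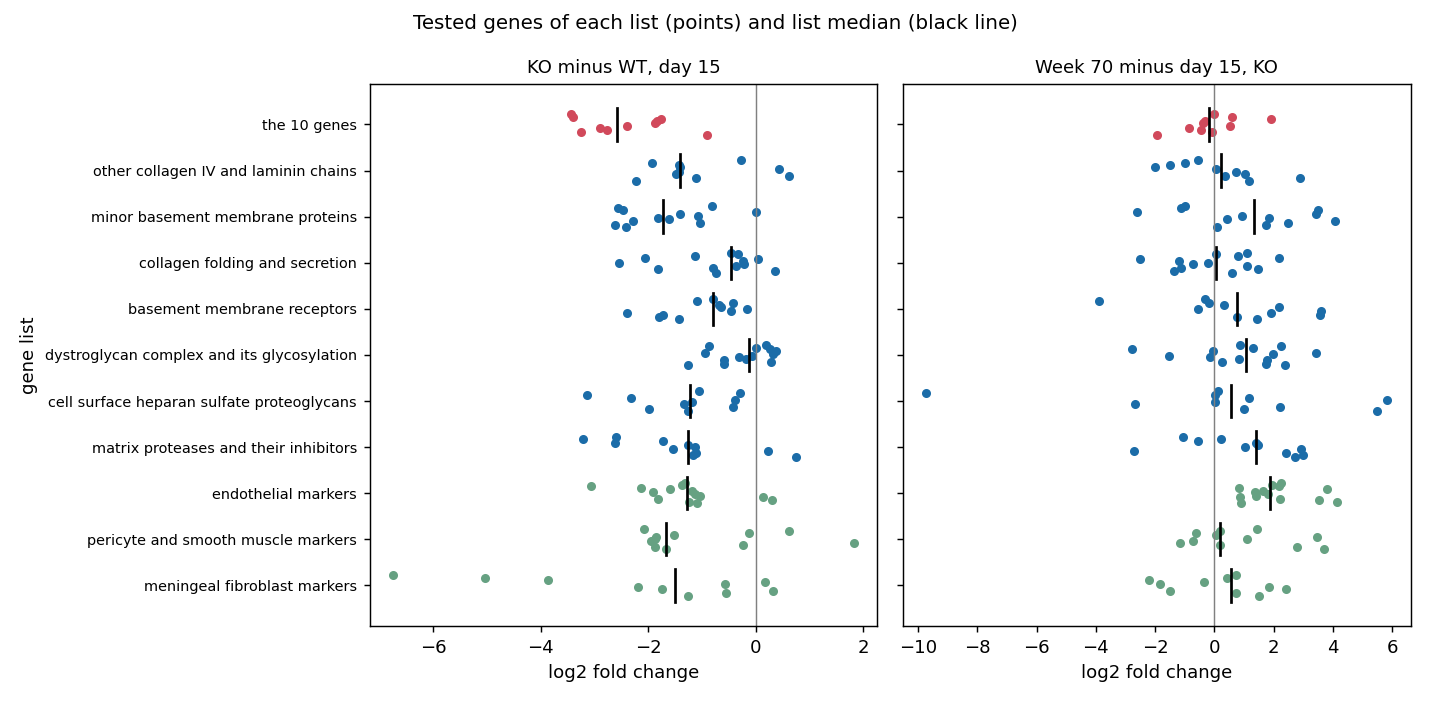
Log2 fold changes of single genes in the 10 members and in the pathway and marker lists, with the list median, for genotype at day 15 and for age within the knockout. The members have the lowest median of the genotype panel, -2.58, while in the age panel the endothelial markers lie at 1.87 and the members at -0.20.

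In the age comparison the median of every other pathway list lay above that of the members. The counts that follow stand against 37.6% of all genes called higher and 44.4% lower (42% and 36.3% in the corrected fit). Of 12 minor basement membrane proteins 8 rose and 3 fell, with a median of 1.35, led by Smoc2 (4.07), Sparc (3.48) and Tinagl1 (3.43). Pxdn, whose product crosslinks collagen IV, fell by 2.62, and Col18a1 by 1.13. Among the 10 other collagen IV and laminin chains tested, 4 rose and 3 fell, with Lamb2 at 1.04, Lama1 lowest and Col4a6 at -1.50. Their median of 0.21 became -0.04 under upper-quartile scaling and -0.38 in the corrected fit, where Lamb2 measured -0.17, Lama1 -2.57 and Col4a6 -2.24. The corrected values of Col18a1, Pxdn and Tinagl1 were -2.52, -3.27 and 2.74. Receptor genes rose in 6 of 11 and fell in 2, led by Itgb4 (3.61, or 2.31 corrected) and Bcam (3.56, or 2.65 corrected), which encodes a laminin receptor. Genes of the dystroglycan complex rose in 10 of 14 and fell in 2, and Utrn, which encodes the dystrophin relative utrophin, rose by 2.23.

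Of the 10 cell surface proteoglycans 5 rose and 2 fell. Gpc5 rose by 5.83 and Sdc4 by 5.48, whereas Gpc2, a glypican of growing axons, held 0 and 3 counts at week 70 and was at least 426-fold lower than in fetal KO brain, against 3 counts per library. Of the proteases and inhibitors 7 rose and 3 fell. The inhibitor genes Timp3 (2.97), Timp4 (2.71) and Timp2 (2.41, or 1.81 corrected) rose, and so did the protease gene Plau (2.92), which averaged under 50 counts. The falls were the inhibitor gene Timp1 (-2.71, not called in the corrected fit, edgeR adjusted p = 0.0675), Mmp2 (-1.06, or -1.67 corrected) and Mmp14 (-0.54). Of the folding genes 6 rose and 5 fell, shares close to those over all genes, with Plod1 at 2.16 and Plod2 at -2.52. Corrected counts of rises and falls were 7 and 4 for the minor proteins, 1 and 3 for the other chains, 6 and 6 for folding, 6 and 3 for receptors, 10 and 3 for the dystroglycan list, 4 and 3 for surface proteoglycans and 6 and 2 for proteases and inhibitors. Markers of cell types that mature after birth moved with age too, all 6 astrocyte, all 6 oligodendrocyte and all 6 microglia markers being higher at week 70. Their part in these values was not tested.

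Across the 8 libraries, the genes whose pattern was most like that of Col4a1 were Hspg2, Col4a2, Celsr1, Mmp9 and Nid2. The measure was the root mean square difference of log2 CPM, each gene centred on its own mean, and it ran from 0.219 for Hspg2 to 0.329 for Nid2 among 14602 genes. Nid1 ranked 6, Lamc1 33, Lamb1 58, Lama4 76, Agrn 642 and Lama2 2773. Celsr1, an atypical cadherin of planar polarity that is not a matrix gene, measured 174 CPM in WT, 20.3 CPM in fetal KO and 15.3 CPM at week 70, as group means. The 5 genes were picked for likeness to Col4a1, so they share its difference between fetal WT and the KO groups by construction. Agrn had its larger step between the KO ages. The week 70 values of Lama2 overlapped those of WT only through WT replicate 1.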

How the data were processed

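RNA was sequenced from 8 whole brain libraries. The authors deposited raw read counts per Ensembl gene (34299 genes, 351 without a name); the submitters' processing notes name FastQC, cutadapt, Trimmomatic, HISAT2, featureCounts and edgeR, and the builds GRCm38 and GRCm39. Versions, annotation, strand and the handling of multimapping reads are not given in the sources used here, so overlapping genes are uncertain. The members and lists were chosen with earlier results of these data known.

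All genes were fitted in edgeR 4.0.16 (R 4.3.3): filterByExpr, TMM, two-sided quasi-likelihood F-test, Benjamini-Hochberg over all genes tested, threshold 0.05, and only the groups compared in each fit. The SE is the log2 fold change divided by the square root of F. CPM levels use TMM factors over all 8 libraries. Positions, length and GC came from GENCODE M21 (GRCm38, longest transcript), matched by identifier. In the corrected fit each library's trend on length and GC, smoothed with mgcv 1.9.3, entered as an offset. Fits were tested on simulated data. Replicates of a group differed beyond counting noise, so none was merged. Depth, 14110031 to 20833397 counts per library, limits the precision of low counts: Lama2 had 56 to 91 counts in fetal KO. Where a gene held 3 counts or fewer, the floor of 3 counts covers counting error only.

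Named genes were every member, Cav1, in each list up to 3 called rises and 3 called falls averaging 50 counts or more, and the 5 genes most like Col4a1; other list genes were chosen after their values were seen, and a few genes the rule names are not reported here. Alternatives were other scalings and filters, DESeq2 1.42.0, all 8 libraries in 1 fit, the replicate number as a block, the corrected fit and each library left out. The corrected fit without WT replicate 1 was chosen after seeing the data.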

Additional observations from a re-analysis of the deposited data

How the results depend on the processing

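At day 15 all 10 genes were called lower in every alternative except the corrected fits, which called 9. Agrn turned to 0.14 with the correction, to 0.14 with the correction and the replicate block, and to 0.11 with the correction and without WT replicate 1. For age, 6 genes were called, 5 to 7 with 1 library left out, 5 with the block, 8 under upper-quartile scaling and 9 corrected. Near-zero values changed sign: Col4a1 measured 0.084 with all 8 libraries in 1 fit and -0.067 to 0.042 with 1 library left out, above 0 without fetal KO replicate 1, fetal KO replicate 2 or week 70 replicate 1. Hspg2 measured 0.032 with all 8 libraries and -0.24 to 0.093 with 1 left out, above 0 without week 70 replicate 2. Col4a2 turned to -0.77 and Lamc1 to -0.11 with the correction, and to -0.76 and -0.15 with correction and block. For week 70 against WT, 9 or 10 genes were called. Lama2 measured -0.011 without WT replicate 2 and 0.64 without WT replicate 1. It measured 0.76 with the correction. With the correction and without WT replicate 1 it was called higher, at 1.19 (SE 0.171, edgeR adjusted p = 0.000613). The cause of these changes was not tested.

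Replicate numbers did not pair the samples: same-numbered libraries had correlations of deviations of -0.185 to -0.232 at day 15 and 0.00784 to 0.0514 for age. With the block, the calls over all genes went from 11993 to 11184 at day 15, from 16390 to 14876 for age and from 15300 to 13244 for week 70 against WT; among the members, 10, 5 and 9 were called. Upper-quartile scaling moved the share of higher calls from 48.1% to 60.8% at day 15.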
